A study of Homo sapiens with 24 samples.

Results

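CYP1B1 and 6 other genes of the aryl hydrocarbon receptor (AHR) pathway, CYP1A1, AHR, AHRR, ARNT, TIPARP and NQO1, were followed through cultures of stem cell-derived sensory neurons given inflammatory cytokines. The 7 genes were picked by name, because CYP1B1 was lower after TGF-β and higher after IL-4+IL-13 in these same libraries, and the question was whether other targets of the receptor shared this opposite pattern. They make up 7 of the 36468 rows of the count table, with 1 row each, and all 7 were among the 27622 genes with enough counts to be tested. The cells came from H9WAO9, a line of human embryonic stem cells without a genetic change (WT), guided through vagal neural crest precursors to mature sensory neurons. Each of 6 batches of differentiation gave 1 library per group, 24 libraries in all. The study's methods name 5 samples per condition for RNA extraction, so the set behind its own results may differ from these 6 batches. Vehicle cultures received only the carrier solution, TGF-β cultures received 2 ng/ml TGF-β, and IL-4+IL-13 cultures received 10 ng/ml IL-4 with 3 ng/ml IL-13, each for 5 days. A further group of 6 libraries is labelled IL-6, with no dose in the labels, and the study's text does not describe it. All libraries share 1 cell line, so the spread between batches is that of repeated differentiation and not of donors.

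AHR is a transcription factor held in the cytoplasm by HSP90 and its co-chaperones until a ligand, such as a plant indole, a tryptophan metabolite or a combustion product, enters the cell. It then moves to the nucleus, pairs with ARNT and binds a short response element upstream of its targets. Among these are the cytochromes P450 CYP1A1 and CYP1B1, which oxidise xenobiotics, steroids and retinoids, and NQO1, a quinone reductase that also responds to the oxidative stress factor NRF2. The targets AHRR and TIPARP close feedback loops, since AHRR competes with AHR for ARNT, and TIPARP is an ADP-ribosyltransferase that acts on AHR itself. CYP1B1 is also known for its transcription in mesenchymal and neural crest-derived tissue without added ligand.

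Library totals lay between 33342682 and 39817784 counts. The libraries are of whole cultures, in which the study's own flow cytometry counted only a minority of cells as neurons, so fewer cells of a type and less RNA per cell cannot be told apart in any result below. The summed level of 8 neuronal markers was lowest in batch 1 in every group, at 1437 to 2461 CPM (counts scaled to a common library size), against group medians of 4432 to 4959. The vehicle library of batch 2 did not resemble the other libraries of its batch (correlation of centred levels over 15924 genes 0.00, against 0.56 with batch 3), and the vehicle library of batch 4 resembled batch 2 (0.47) more than its own batch (0.19). The 3 treated libraries of batch 4 were closest to batch 3 (0.59 to 0.77), and the remaining libraries were closest to their own batch (0.39 to 0.89). The labels were kept as given, and values without these libraries are set beside the results that they move most.

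CYP1B1 had the largest difference between treatments of the 7 genes. It encodes a monooxygenase of steroids and retinoids, lies on the minus strand of chromosome 2 (38067509 to 38076151 of GRCh38.p14) and has 3 exons. Its level in the 6 vehicle libraries was lowest at 85.5 CPM, with a median of 126 and a highest value of 156. After TGF-β the lowest, median and highest values were 63.9, 85.7 and 125 CPM. After IL-4+IL-13 they were 114, 198 and 302 CPM, and in the IL-6 libraries 78.3, 124 and 170 CPM. The groups overlapped, since batch 3 was the lowest and batch 1 the highest library in each of the 4 groups. Within batches the order was the same throughout for the treatments that chose the gene. TGF-β was below vehicle in 6 of 6 batches, with differences of -0.67 to -0.18 on the log2(CPM + 1) scale, and IL-4+IL-13 was above vehicle in 6 of 6 batches, by 0.41 to 0.95. Of all genes tested, 2.51% were lower in 6 of 6 batches after TGF-β and 2.43% were higher in 6 of 6 after IL-4+IL-13. The fitted log2 fold changes were -0.42 ± 0.08 (SE, n = 6 batches) for TGF-β and 0.69 ± 0.08 (SE, n = 6) for IL-4+IL-13. Set directly against each other, TGF-β was lower than IL-4+IL-13 in 6 of 6 batches, with a log2 fold change of -1.11 ± 0.08 (SE, n = 6), or 2.16-fold. That sign pattern was seen in 5.58% of all genes. These 3 contrasts chose CYP1B1, so its values in them are a description and carry no test.

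**Figure D1:**
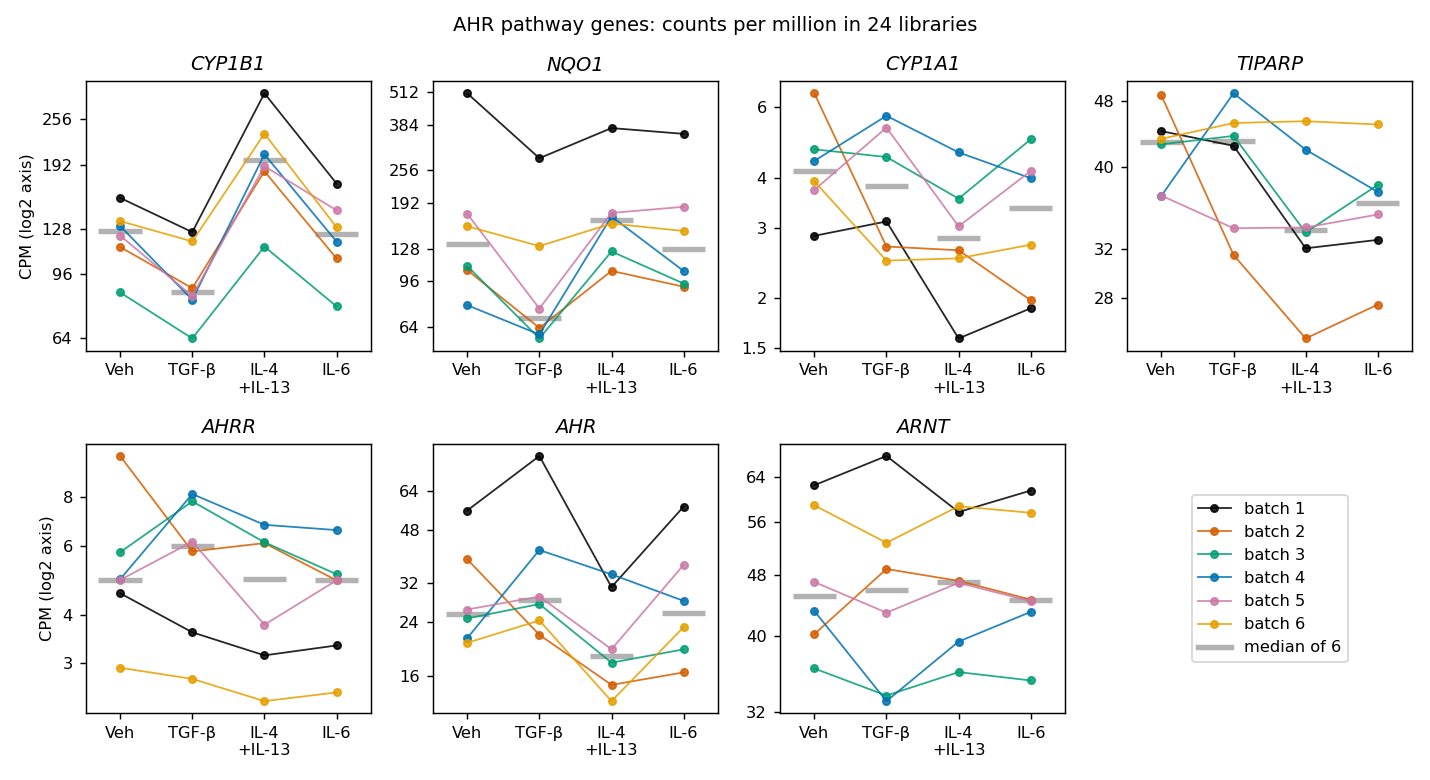
Level of each of the 7 genes in CPM (log2 axis) by group, with 1 line per batch of differentiation and the grey bar at the median of 6 libraries. CYP1B1 is lower under TGF-β than under vehicle and highest under IL-4+IL-13 along every line, NQO1 is lowest under TGF-β along every line, and the lines of ARNT stay in nearly the same order.

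The IL-6 libraries had no part in choosing CYP1B1, but the libraries they are compared with did, so the tests below are not independent support of its pattern. The level after IL-6 did not differ from vehicle beyond the spread between batches (log2 fold change -0.01, 95% interval -0.17 to 0.15, edgeR adjusted p = 0.993), with 2 of 6 batches higher. The levels of CYP1B1 ran from IL-4+IL-13 at the top through vehicle and IL-6, the neighbours that did not differ, to TGF-β at the bottom. IL-4+IL-13 exceeded IL-6 by 0.70 ± 0.08 (SE, n = 6 batches, edgeR adjusted p = 3.68e-05), higher in 6 of 6 batches, in a comparison where 0.51% of all genes tested passed the same threshold and 2.75% were higher in all batches. This difference was 0.65 without batches 2 and 4, where it still passed (edgeR adjusted p = 0.00297), and it was lost when batch was left out of the model (adjusted p = 0.858). TGF-β against IL-6 gave a log2 fold change of -0.41 ± 0.08 (SE, n = 6, edgeR adjusted p = 0.0448), lower in 6 of 6 batches, where 0.0796% of genes passed and 3.68% were lower in all batches. This call was lost without batch 1, 3, 4, 5 or 6, each left out in turn, with adjusted p values between 0.0765 and 0.338. An exact sign-flip test over the 6 batches gave its smallest possible two-sided p of 0.03125 for both IL-6 comparisons, or 0.174 after adjustment over the 39 tests of that kind.

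NQO1 was the member whose pattern came nearest to that of CYP1B1. The gene, a NAD(P)H quinone reductase with 6 exons on the minus strand of chromosome 16 (69709401 to 69726560), ranged in vehicle libraries from 77.5 CPM over a median of 133 to 508 CPM in batch 1. After TGF-β the lowest, median and highest values were 57.7, 69.3 and 285 CPM. After IL-4+IL-13 they were 105, 165 and 373 CPM, and in the IL-6 libraries 91.3, 127 and 354 CPM. The highest library of every group was that of batch 1, and the groups overlapped. Within batches TGF-β was below vehicle 6 times of 6, with differences of -1.20 to -0.25 on the log2(CPM + 1) scale. The fitted log2 fold change was -0.72 ± 0.15 (SE, n = 6 batches, edgeR adjusted p = 0.0466), or a 1.65-fold fall, in a comparison where 0.391% of all genes passed and 0.293% passed by falling. This call stood close to the threshold. It was lost without batch 1 (adjusted p = 0.102), 2 (0.109), 3 (0.324), 5 (0.255) or 6 (0.0877), without the vehicle library of batch 2 alone (0.0848), and without batches 2 and 4 (0.127). It was also lost without the IL-6 libraries (adjusted p = 0.161) and when batch was left out of the model (adjusted p = 1), while DESeq2 gave 0.0012 by a Wald test. The log2 fold change stayed between -0.84 and -0.65 under all 16 alternatives.

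No difference in NQO1 was detected between IL-4+IL-13 and vehicle. Its log2 fold change against vehicle was 0.16, with a 95% interval of -0.17 to 0.48 (edgeR adjusted p = 0.806), and 4 of 6 batches were higher. Batch 4, whose vehicle library resembled batch 2, gave 1.12, and the other 5 batches gave -0.44 to 0.18. Without batch 4 the log2 fold change was -0.05. The direct comparison of the treatments passed the test. TGF-β was below IL-4+IL-13 in 6 of 6 batches, with differences of -1.49 to -0.29 and a log2 fold change of -0.88 ± 0.15 (SE, n = 6, edgeR adjusted p = 0.00244), where 3.15% of all genes passed and 2.02% passed by being lower. The call held in 15 of 16 alternatives and was lost when batch was left out of the model. Against IL-6, NQO1 after TGF-β was lower in 6 of 6 batches, with a log2 fold change of -0.63 that did not pass (edgeR adjusted p = 0.121).

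**Figure D2:**
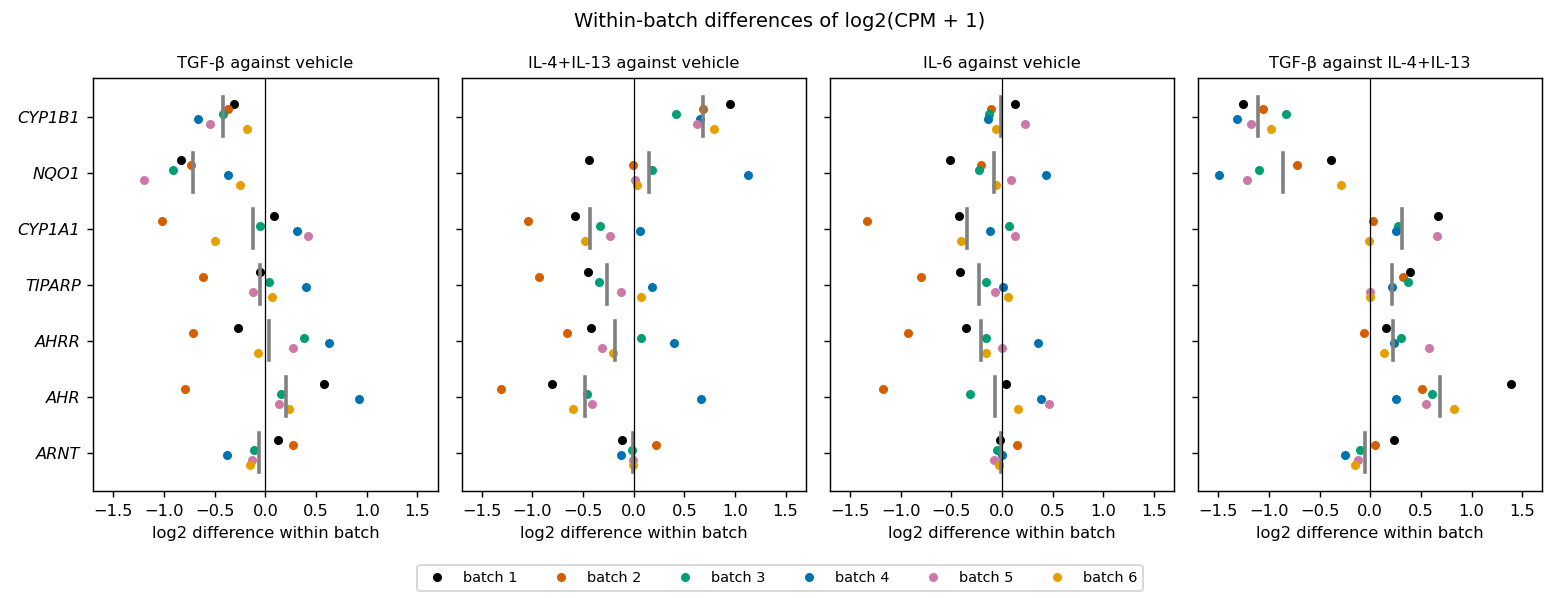
Difference in log2(CPM + 1) within each batch for the 7 genes in 4 comparisons, with 1 point per batch and the grey bar at the mean of 6. CYP1B1 and NQO1 lie left of 0 in every batch for TGF-β against vehicle and for TGF-β against IL-4+IL-13, AHR lies right of 0 in every batch of the latter, and the points of batch 2 lie far to the left for CYP1A1, TIPARP, AHRR and AHR against vehicle.

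For the other targets of the receptor no change passed the test. CYP1A1, the target most used as a readout of AHR activity, has 7 exons on the minus strand of chromosome 15 (74719542 to 74725528). It was read from 57 to 237 counts per library, and its lowest, median and highest levels were 2.86, 4.17 and 6.51 CPM in vehicle, 2.48, 3.81 and 5.72 CPM after TGF-β, 1.59, 2.83 and 4.63 CPM after IL-4+IL-13 and 1.89, 3.36 and 4.99 CPM in the IL-6 libraries. All 4 groups overlapped. IL-4+IL-13, the treatment with the highest CYP1B1, gave the lowest median of CYP1A1, with a log2 fold change against vehicle of -0.61 (95% interval -1.05 to -0.18, edgeR adjusted p = 0.3002) that did not pass where 0.684% of genes did. It was lower in 5 of 6 batches, and its value without the vehicle library of batch 2 was -0.36. TGF-β against vehicle gave -0.19, with 3 batches higher and 3 lower, and 0.05 without that library. The IL-6 libraries, where CYP1B1 did not differ from vehicle, gave -0.48 for CYP1A1 (95% interval -0.91 to -0.04), which did not pass. That value ranged from -0.60 to -0.21 with 1 batch left out, and its batch 2 difference was -1.34. IL-4+IL-13 against IL-6 gave -0.13 (95% interval -0.57 to 0.30), so no difference in CYP1A1 between these 2 treatments was detected.

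TIPARP and AHRR, the feedback genes, lay closer together across groups. TIPARP, on the plus strand of chromosome 3 (156674590 to 156706770, 6 exons), had medians of 42.9 CPM in vehicle, 43.0 after TGF-β, 33.7 after IL-4+IL-13 and 36.3 with IL-6, within ranges of 37.0 to 48.7, 31.5 to 49.0, 25.04 to 45.4 and 27.5 to 45.0 CPM. Its log2 fold change was -0.29 for IL-4+IL-13 (95% interval -0.52 to -0.06, edgeR adjusted p = 0.403) and -0.07 for TGF-β (95% interval -0.30 to 0.16, adjusted p = 0.967). IL-6 against vehicle gave a similar -0.25 for TIPARP (95% interval -0.48 to -0.02), and IL-4+IL-13 against IL-6 gave -0.03. AHRR, the repressor, on the plus strand of chromosome 5 (321714 to 438285, 11 exons), had medians between 4.89 and 5.98 CPM in the 4 groups and single libraries from 2.40 to 10.2 CPM. The library at 10.2 CPM was the vehicle library of batch 2. AHRR gave log2 fold changes of 0.02 for TGF-β (95% interval -0.32 to 0.36) and -0.26 for IL-4+IL-13 (95% interval -0.60 to 0.08), neither of which passed (edgeR adjusted p = 0.998 and 0.661). Without the vehicle library of batch 2, the log2 fold changes of TIPARP and AHRR after IL-4+IL-13 against vehicle were -0.15 and -0.087. Neither gene passed in any of the 6 comparisons, with all groups overlapping.

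The receptor itself had its highest median after TGF-β and its lowest after IL-4+IL-13, the reverse of CYP1B1, with a difference that did not pass the test. AHR, on the plus strand of chromosome 7 (17298652 to 17346147, 11 exons), had lowest, median and highest levels of 20.5, 25.5 and 55.4 CPM in vehicle, 21.8, 28.2 and 83.4 CPM after TGF-β, 13.2, 18.6 and 34.3 CPM after IL-4+IL-13 and 16.4, 25.6 and 57.0 CPM with IL-6. The highest vehicle, TGF-β and IL-6 libraries were those of batch 1. TGF-β was above IL-4+IL-13 in 6 of 6 batches, by 0.26 to 1.39 on the log2 scale, a sign pattern seen in 4.17% of all genes. The log2 fold change of 0.70 (95% interval 0.26 to 1.14) had an edgeR adjusted p of 0.0843. It passed in 6 of 16 alternatives, among them DESeq2 (adjusted p = 0.0222), the fit without the vehicle library of batch 2 (0.0154), without batch 2 (0.0345), without batch 4 (0.0354) and without both of those batches (0.00406). Against vehicle the log2 fold changes were 0.17 for TGF-β (edgeR adjusted p = 0.952) and -0.53 for IL-4+IL-13 (adjusted p = 0.438). In batch 4, IL-4+IL-13 was 0.67 above vehicle, while the other 5 batches gave -1.31 to -0.41. Without the vehicle library of batch 2 the log2 fold change after IL-4+IL-13 was -0.29, and without batch 4 it was -0.78.

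ARNT, the shared dimer partner with 22 exons on the minus strand of chromosome 1 (150809713 to 150876599), was the steadiest member. Its group medians lay between 44.5 and 47.0 CPM, with no single library above 68.2 CPM. Against vehicle, TGF-β gave a log2 fold change of -0.06 (95% interval -0.20 to 0.08), and both IL-4+IL-13 and IL-6 gave -0.01 (95% interval -0.15 to 0.13 in each case). Batch accounted for 90.4% of the variance of its log2 level and treatment for 0.75%. For NQO1 and AHRR, batch accounted for 75.9% and 76.7% and treatment for 16.5% and 5.86%. CYP1B1 was the member with more variance between treatments, 57.0%, than between batches, 39.2%, a share that includes the contrasts by which it was chosen.

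Under the stricter rule of the study, an adjusted p under 0.05 with a log2 fold change beyond 1, none of the 6 genes besides CYP1B1 was called in any comparison. This rule called 0.159% of all genes for TGF-β against vehicle, 0.398% for IL-4+IL-13 against vehicle, 1.26% for TGF-β against IL-4+IL-13, 0.0326% for TGF-β against IL-6 and 0.3% for IL-4+IL-13 against IL-6. The groups of every member overlapped in each comparison between TGF-β, IL-4+IL-13 and vehicle, whereas 0.0688%, 0.272% and 0.326% of all genes had groups apart for TGF-β against vehicle, IL-4+IL-13 against vehicle and the direct comparison. CYP1B1 was past it in the direct comparison alone, which helped choose it. With IL-6 against vehicle the log2 fold changes of all 7 genes were negative, from -0.48 for CYP1A1 to -0.01, and none passed. By the edgeR test 0% of genes passed there. At an unadjusted p under 0.05 the share was 4.7%, and DESeq2 called 117 genes.

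Per kilobase of the canonical transcript of GENCODE v44, the vehicle medians ran from NQO1 (52.7 CPM per kb) through CYP1B1 (24.2), TIPARP (11.1), ARNT (9.56), AHR (4.08) and CYP1A1 (1.60) to AHRR (0.868). Each gene was above the next in 6 of 6 batches except TIPARP, which was above ARNT in 3 of 6. The group medians had the same order after TGF-β, while the median of ARNT was above that of TIPARP after IL-4+IL-13 and with IL-6.

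Within batches, CYP1A1, AHR, AHRR and TIPARP varied together from library to library. With the batch mean taken off each log2 level, the 6 pairs among these 4 genes had correlations of 0.70 to 0.79 over the 24 libraries, and of 0.63 to 0.76 once the group means were taken off as well. Without batches 2 and 4 the same pairs stood at 0.44 to 0.60 over 16 libraries. CYP1B1 was apart from them. Its correlation was -0.62 with AHR, -0.43 with CYP1A1, -0.40 with TIPARP and -0.38 with AHRR, and 0.70 with NQO1. With group means also removed, CYP1B1 stood at 0.04 with AHR and 0.16 with NQO1. NQO1 and AHR went from -0.18 to 0.62 by the same step. These are descriptions over libraries that share batches, depth and treatments.

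**Figure D3:**
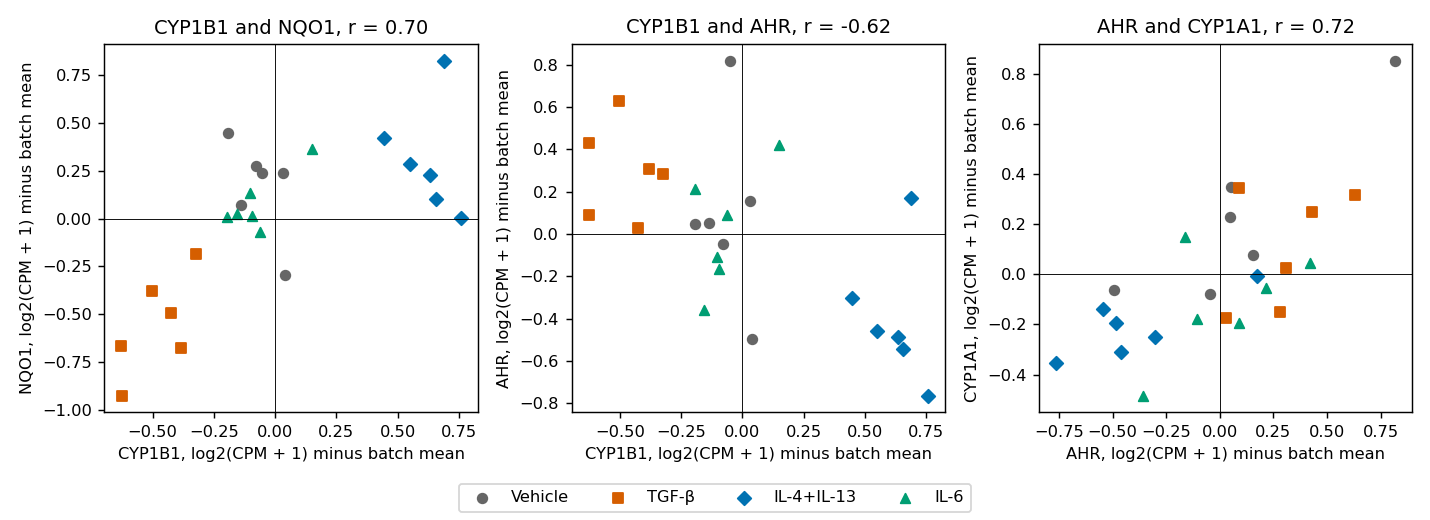
Levels of 3 pairs of genes as log2(CPM + 1) minus the batch mean, with 1 point for each of 24 libraries, coloured by group. CYP1B1 separates IL-4+IL-13 to the right and TGF-β to the left in its 2 panels (r = 0.70 with NQO1 and -0.62 with AHR). AHR and CYP1A1 rise together (r = 0.72), also with group means removed as well (r = 0.70, not drawn).

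The promoter stretches next to the starts of the 4 genes that varied together and of NQO1 are shown, as AHR with ARNT binds upstream of its targets. They were read from RefSeq's GRCh38.p14 windows, which run from 250 bases before to 50 bases after an annotated start. Sequence outside these windows was not read, so elements lying further away would not appear. Capitals mark the core of the xenobiotic response element, GCGTG, or its reverse complement on the other strand. CYP1A1 (chr15:74725479-74725778, minus strand) holds 1 core 57 bases upstream of the start, AHR (chr7:17298402-17298701, plus strand) 1 core 37 bases downstream, and the first AHRR window (chr5:321464-321763, plus strand) 1 core 30 bases upstream. TIPARP (chr3:156674340-156674639, plus strand) holds 2 on the other strand, 208 and 142 bases upstream, and NQO1 (chr16:69726511-69726810, minus strand) 1 on the other strand, 1 base downstream.
CYP1A1: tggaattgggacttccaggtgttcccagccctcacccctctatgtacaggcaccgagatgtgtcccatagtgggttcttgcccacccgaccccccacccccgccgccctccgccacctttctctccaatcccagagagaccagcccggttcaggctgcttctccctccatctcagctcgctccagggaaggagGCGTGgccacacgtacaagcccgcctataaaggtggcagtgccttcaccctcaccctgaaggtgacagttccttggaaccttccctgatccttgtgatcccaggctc
AHR: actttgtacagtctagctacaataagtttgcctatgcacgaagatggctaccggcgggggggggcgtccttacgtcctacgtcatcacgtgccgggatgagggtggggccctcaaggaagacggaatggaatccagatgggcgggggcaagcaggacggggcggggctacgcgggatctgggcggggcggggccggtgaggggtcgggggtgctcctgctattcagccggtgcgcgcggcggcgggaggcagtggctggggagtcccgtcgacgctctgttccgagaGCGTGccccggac
AHRR: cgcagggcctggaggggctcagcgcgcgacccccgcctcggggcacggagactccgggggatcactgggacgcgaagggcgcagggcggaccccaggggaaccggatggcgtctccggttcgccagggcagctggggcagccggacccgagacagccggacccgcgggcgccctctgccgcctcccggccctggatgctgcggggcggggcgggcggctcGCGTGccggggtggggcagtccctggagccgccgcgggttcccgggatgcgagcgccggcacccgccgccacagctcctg
TIPARP: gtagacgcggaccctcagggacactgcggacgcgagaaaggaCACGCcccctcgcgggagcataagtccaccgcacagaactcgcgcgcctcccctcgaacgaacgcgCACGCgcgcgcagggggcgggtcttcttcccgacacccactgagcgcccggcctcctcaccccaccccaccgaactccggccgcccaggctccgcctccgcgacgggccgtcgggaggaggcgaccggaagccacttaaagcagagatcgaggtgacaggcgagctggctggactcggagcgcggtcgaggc
NQO1: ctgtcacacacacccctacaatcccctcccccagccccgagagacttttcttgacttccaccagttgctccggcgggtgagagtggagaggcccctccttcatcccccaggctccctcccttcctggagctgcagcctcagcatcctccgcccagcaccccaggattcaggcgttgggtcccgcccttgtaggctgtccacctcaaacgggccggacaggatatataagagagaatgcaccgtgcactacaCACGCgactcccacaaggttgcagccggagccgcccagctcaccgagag
Of the 7 genes, 6 had at least 1 window, CYP1B1 being the gene without one. Of those 6, 5 held the core in at least 1 window, with ARNT the exception. Counted by window, 6 of 9 held it. A second AHRR window (chr5:322360-322659) with 2 cores and further TIPARP windows without a core are not shown. The core is short and common, being present in 36.5% of all 35116 windows of the table, so a match describes the letters and not a bound site. The antioxidant element TGACNNNGC, the form bound by NRF2, was in 13.3% of windows, and among the windows of the members it was found in that of ARNT alone. For NQO1 and the others this leaves elements outside the windows unread.

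Genes whose batch-centred levels were most like those of CYP1B1 over the 24 libraries, among 14090 genes with a mean count of at least 50, were CYSLTR1, a cysteinyl leukotriene receptor (r = 0.94), TAF4B, a subunit of the general transcription machinery (0.93), CAVIN2, a coat protein of caveolae (0.92), ATP13A5 (0.91) and DNAAF11 (0.90). CYSLTR1 had log2 fold changes of -1.14 for TGF-β and 1.85 for IL-4+IL-13 against vehicle. The most opposite were ITGA11, a collagen-binding integrin (-0.92), CLCF1, a cytokine of the IL-6 family (-0.91), HMGA2, a chromatin protein (-0.90), LIF, another cytokine of that family (-0.90), and MAP4K5 (-0.90). ITGA11 had log2 fold changes of 0.81 for TGF-β and -1.59 for IL-4+IL-13. Likeness over these libraries includes the treatment differences by which CYP1B1 was chosen, so these fold changes are a description that follows in part from that choice. No member of the AHR pathway was among these 10, which are few beside the 14090 genes ranked. NQO1 ranked 284 from the top, ARNT 4398, and AHR 303 from the bottom.

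The wider pathway was read from gene lists. Of 12 genes for the cytoplasmic complex of AHR and its nuclear partners, none passed in any of the 6 comparisons. ARNT2, the neuronal counterpart of ARNT, had log2 fold changes against vehicle of 0.01 after TGF-β and 0.12 after IL-4+IL-13. Its median of 136 CPM in vehicle libraries lay within a range of 91.3 to 152 CPM. Of 15 other AHR targets, 1 passed, in TGF-β against IL-4+IL-13, where 3.15% of all genes passed. SLC7A5, an amino acid transporter that carries tryptophan and kynurenine, was higher after TGF-β than after IL-4+IL-13 in 6 of 6 batches (log2 fold change 0.37 ± 0.09, SE, n = 6, edgeR adjusted p = 0.0223). That call was lost without batch 1. The median log2 fold change of the 15 targets was -0.07 for TGF-β and 0.02 for IL-4+IL-13 against vehicle, beside -0.005 and -0.001 for all genes. CYP1A2 and ALDH3A1, classical targets in liver and epithelium, were read at no more than 0.755 and 0.252 CPM in any library. UGT1A6, GSTA1, ABCG2, EREG and IL24 were also low, with highest values of 0.131, 0.346, 0.628, 0.141 and 0.104 CPM. A change in these low targets could hardly be detected, so neither the medians nor the count that passed shows that they stayed level. In batch 2, LRAT stood at 1.48 CPM in vehicle and at 63.4 to 72.1 CPM in the treated libraries. In the other batches it reached at most 1.56 CPM.

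Among 9 genes of tryptophan-derived ligand metabolism with enough counts, of 10 listed, 1 passed for IL-4+IL-13 against vehicle and another 1 for TGF-β against IL-4+IL-13, where 0.684% and 3.15% of all genes passed. AFMID, which releases kynurenine from formylkynurenine, was higher after IL-4+IL-13 than vehicle in 5 of 6 batches (log2 fold change 0.58 ± 0.13, SE, n = 6, edgeR adjusted p = 0.0443), at a median of 10.4 against 6.49 CPM, and did not pass without batches 2 and 4. KMO, which draws kynurenine away into hydroxykynurenine, was lower after TGF-β than after IL-4+IL-13 in 6 of 6 batches (log2 fold change -1.44 ± 0.34, SE, n = 6, edgeR adjusted p = 0.0202). Its medians were low, 0.349 and 0.857 CPM, from 4 to 139 counts per library. IDO1, the enzyme that starts the pathway in inflamed tissue, reached at most 11 counts in any library and was at 0 in at least 1 library of each group.

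NQO1 also belongs to the NRF2 programme, and the other genes of that programme did not pass. None of 13 listed genes of the NRF2 programme, its regulator KEAP1 among them, passed in any comparison. Their median log2 fold change was 0.00 after TGF-β and 0.01 after IL-4+IL-13 against vehicle, and -0.05 in the direct comparison. TXNRD1, thioredoxin reductase, had -0.18 for TGF-β against vehicle (edgeR adjusted p = 0.557), and HMOX1, heme oxygenase, had 0.30 (adjusted p = 0.743).

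ARNT serves the hypoxia factors as well as AHR. All 14 listed genes of these factors and their targets had a negative log2 fold change for TGF-β against vehicle, with a median of -0.35, but none passed. EPAS1, a hypoxia factor, came nearest (-0.59 ± 0.14, SE, n = 6 batches, edgeR adjusted p = 0.0932), and it passed with DESeq2. Without batches 2 and 4 the median for TGF-β was -0.12 and 12 of 14 were negative. With all batches in the fit, the lean was not particular to TGF-β. The groups share the vehicle library of batch 4, the highest vehicle library for all listed genes but HIF1A, EPAS1, CA12, ADM and ANKRD37. It stood at 616 CPM for SLC2A1 (vehicle median 261) and 172 CPM for BNIP3 (vehicle median 46.5). The part of this library in the lean was not tested. Against vehicle, 11 of 14 were negative after IL-4+IL-13 (median -0.12) and 12 of 14 with IL-6 (median -0.15). Without batches 2 and 4, 4 of 14 were negative after IL-4+IL-13 (median 0.11) and 11 of 14 with IL-6 (median -0.12). EPAS1 and CA12, a carbonic anhydrase, were lower after TGF-β than after IL-4+IL-13 (log2 fold changes -0.62 and -0.65, edgeR adjusted p = 0.0187 and 0.033), and neither passed without batches 2 and 4. In that comparison 3.15% of all genes passed. Of 15 genes that handle retinoids and steroids, the substrates of CYP1B1, only HSD17B2 passed, in the same comparison where 3.15% of all genes did. This oxidative estradiol dehydrogenase was lower after TGF-β than after IL-4+IL-13 in 6 of 6 batches (log2 fold change -1.36 ± 0.27, SE, n = 6, edgeR adjusted p = 0.00633), at medians of 14.3 and 58.6 CPM, and it did not pass without batches 2 and 4.

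**Figure D4:**
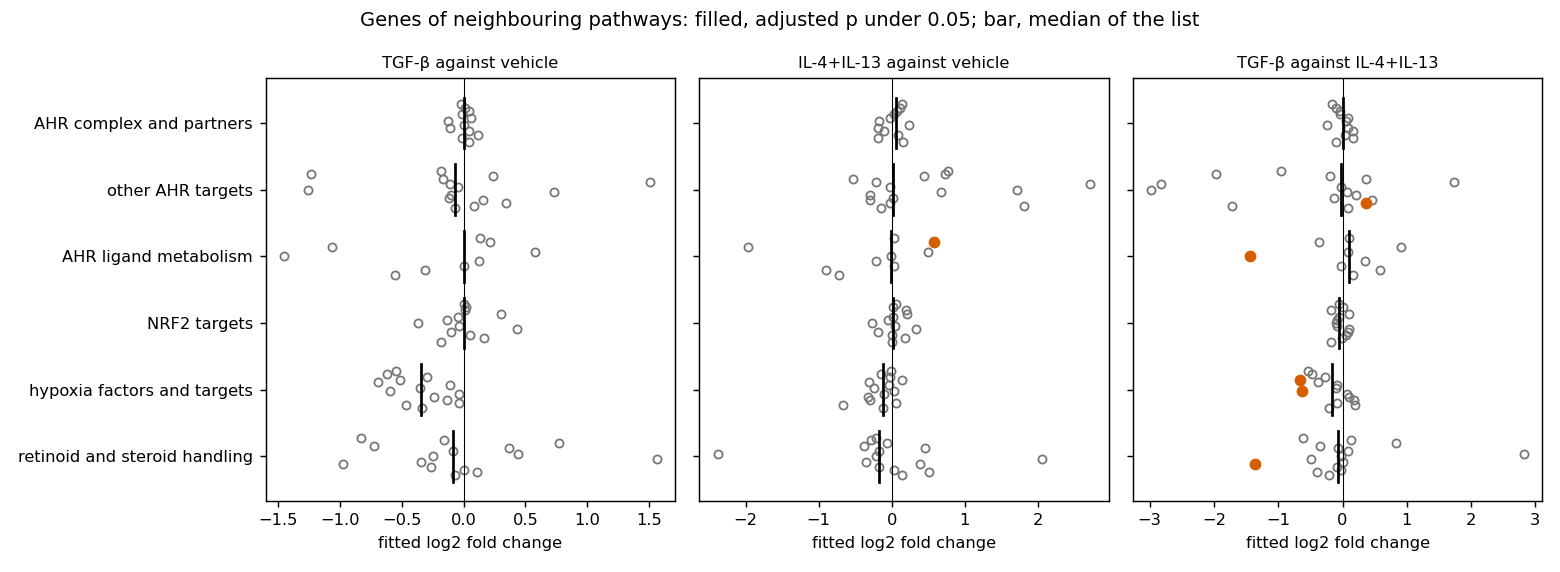
Fitted log2 fold change of each gene in 6 lists around the AHR pathway, in 3 comparisons, with genes past an edgeR adjusted p of 0.05 filled in orange and the black bar at the list's median. Orange points are few, 1 under IL-4+IL-13 against vehicle and 5 in TGF-β against IL-4+IL-13. The hypoxia list lies wholly left of 0 under TGF-β and mostly left of 0 under IL-4+IL-13, each against vehicle.

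Among markers of the cell types that the cultures could hold, COL1A1 and CDH1 were among those that passed the test in some comparison. None of 8 neuronal markers passed in any comparison, with summed levels of 1611 to 6823 CPM in vehicle, 1437 to 7706 after TGF-β and 2461 to 6717 after IL-4+IL-13. COL1A1, the main fibroblast collagen, was higher after TGF-β than after IL-4+IL-13 (log2 fold change 1.31 ± 0.26, SE, n = 6 batches, edgeR adjusted p = 0.00633). It was the only 1 of the 8 mesenchymal markers to pass, in a comparison where 3.15% of all genes did. There 4 of the 8 had positive and 4 negative log2 fold changes, with a median of 0.03 and a lowest value of -0.30. The 8 mesenchymal markers summed to 4312 to 14416 CPM after TGF-β and 2781 to 6382 CPM after IL-4+IL-13, and all 8 had a negative log2 fold change for IL-4+IL-13 against vehicle. The 6 glial markers summed to 54.1 to 123 CPM in vehicle, 94.1 to 181 CPM after TGF-β and 58.2 to 113 CPM after IL-4+IL-13, and 1 of the 6 was at 0 in at least 1 library of each group. CDH1, a cadherin and 1 of 3 epithelial markers, was lower after IL-4+IL-13 than vehicle (log2 fold change -1.88 ± 0.34, SE, n = 6, edgeR adjusted p = 0.00909), where 0.684% of all genes passed. The 3 endothelial markers together stayed at or under 2.47 CPM. The part of these cell types in the differences of CYP1B1 and NQO1 was not tested. Without batch 1, the batch with the least neuronal and, in 3 of 4 groups, the most mesenchymal marker RNA, the log2 fold changes of CYP1B1 were -0.43 for TGF-β and 0.63 for IL-4+IL-13 against vehicle, and that of NQO1 for TGF-β was -0.69.

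The counting tool and strand setting are not given in the sources used here, so reads from a gene and an overlapping partner cannot be told apart. By RefSeq's coordinates, TIPARP, NQO1, AHR, AHRR and ARNT each have at least 1 overlapping gene, TIPARP-AS1 and NQO1-AS1 among them, and none of these partners has a row of its own in the table. CYP1B1 has none in RefSeq, but by the wider gene bounds of GENCODE v44 it overlaps 3 genes, CYP1B1-AS1, RMDN2 and RMDN2-AS1, of which RMDN2 has a row. RMDN2 had medians of 4.29 CPM in vehicle, 4.10 CPM after TGF-β and 4.64 CPM after IL-4+IL-13. Against vehicle its log2 fold changes were -0.09 and 0.13, which did not pass (edgeR adjusted p = 0.969 and 0.839). CYP1A1 has no overlapping gene in either annotation.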

How the data were processed

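Polyadenylated RNA of 24 cultures was sequenced on an Illumina NovaSeq. Adapters were trimmed with Trimmomatic 0.30 and reads aligned to GRCh38.p14, per the submitters' processing notes. The aligner, the counting tool and the strand setting are not given in the sources used here. The values deposited by the authors are raw read counts per gene, with no normalization and no pooling. Totals were 33342682 to 39817784 counts per library, with a median of 35775126. The first row of each symbol was kept, and a gene needed a summed count of at least 10 to be tested, as 27622 genes had.

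Libraries were grouped by the treatment in the labels, and the batch in the labels, which gives each group the replicates 1 to 6, entered the model as the replicate block, as in the study's own model of batch and treatment. edgeR 4.0.16 (R 4.3.3, TMM normalization, robust quasi-likelihood F test, all 24 libraries in 1 fit) gave log2 fold changes and Benjamini-Hochberg adjusted p values over all genes tested. The F statistic and the log2 fold change together gave each standard error. A gene passed at an adjusted p under 0.05, and was called when its log2 fold change was also beyond 1. The blocks pair libraries by batch in the labels, and the correlation of each library with its own batch, 0.00 to 0.89, is the check of that pairing. Levels are CPM after TMM scaling, with a pseudocount of 1 on the log2 scale. Exact sign-flip tests over batches were two-sided. DESeq2 1.42.0 and the other alternatives are in the closing section. Scripts were tested on simulated counts.

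The 7 members and the gene lists were chosen with earlier results of these data known, and none of their counts is independent support. The genes named are the members, genes of these lists, and the 5 most and 5 least like CYP1B1 among those with a mean count of at least 50, loci named NewGene left out. A self-made list was never tested as a set. Coordinates and promoters are RefSeq's for GRCh38.p14, and exon counts and transcript lengths are those of GENCODE v44. Proteins, and the promoter of CYP1B1, were not used here. Values of some list genes are not reported here. P values measure the spread between differentiations of 1 cell line.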

Additional observations from a re-analysis of the deposited data

Results flagged for a closer look

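Of 70 groups of 6 values examined, 3 had a value standing apart from the rest by more than the 95% Dixon criterion for 6 values, and chance sets off about 1 in 20 such groups. All 3 are differences from vehicle in batch 2, whose vehicle library did not resemble its batch. For CYP1A1 the difference of IL-6 from vehicle in batch 2 was -1.34 on the log2 scale, with the nearest other batch at -0.42 (gap ratio 0.626). For ARNT the difference of IL-4+IL-13 from vehicle in batch 2 was 0.22 (gap ratio 0.646), and that of IL-6 from vehicle was 0.14 (gap ratio 0.661), with the nearest batches just under 0.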

How the results depend on the processing

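Leaving out vehicle libraries or batches 2 and 4 was chosen after seeing the data. The differences of CYP1B1 between TGF-β, IL-4+IL-13 and vehicle, and of NQO1 between TGF-β and the other groups, kept their direction under every alternative run. Where a call was lost or a sign changed, the cause was not tested. With no fold threshold, the members past it were 2 of 7 for TGF-β against vehicle (0.391% of all genes), 1 for IL-4+IL-13 against vehicle (0.684%), 2 for TGF-β against IL-4+IL-13 (3.15%), and 1 against IL-6 with either treatment. CYP1B1 is 1 of each count and was chosen by the first 3 comparisons, so without it they are 1, 0 and 1 of 6, NQO1 being the 1. With the fold threshold and without 1 batch, the count for TGF-β against IL-4+IL-13 was 1 to 2, where the 1 is CYP1B1, fixed by its choice, and the other is NQO1 (-1.02 without batch 6).

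Without the replicate block, CYP1B1 did not pass for TGF-β (-0.41) or IL-4+IL-13 (0.72) against IL-6, and no call of NQO1 held. It changed sign for CYP1B1 with IL-6 against vehicle (0.0065), NQO1 with IL-4+IL-13 against vehicle (-0.029) and ARNT between IL-4+IL-13 and IL-6 (-0.0018). CYP1B1 for TGF-β against IL-6 ranged from -0.47 to -0.34 with 1 batch left out, and was -0.42 and not called without batches 2 and 4. CYP1B1 for IL-6 against vehicle ranged from -0.068 to 0.019 with 1 batch left out, and was 0.047 without batches 2 and 4 and 0.03 without their vehicle libraries.

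The other sign changes were all of differences that did not pass. With 1 batch left out, the ranges were -0.34 to 0.051 for CYP1A1, -0.16 to 0.05 for TIPARP and -0.11 to 0.19 for AHRR for TGF-β against vehicle, -0.061 to 0.012 for ARNT and -0.05 to 0.27 for NQO1 for IL-4+IL-13 against vehicle, -0.24 to 0.15 for AHR for IL-6 against vehicle, -0.10 to 0.0062 for ARNT for TGF-β against IL-6, and -0.039 to 0.094 for AHRR and -0.018 to 0.023 for ARNT between IL-4+IL-13 and IL-6. Without the vehicle library of batch 2, CYP1A1 (0.05) and TIPARP (0.069) for TGF-β and AHR (0.13) for IL-6 were positive against vehicle. Without batches 2 and 4, NQO1 was -0.059 for IL-4+IL-13 against vehicle, AHR 0.10 for IL-6 against vehicle and AHRR -0.066 between IL-4+IL-13 and IL-6. Without both vehicle libraries, TIPARP was 0.0044 for TGF-β against vehicle and ARNT -0.0004 between IL-4+IL-13 and IL-6. The latter was also -0.0041 with DESeq2, -0.0037 with RLE scaling, -0.0016 with no filter and -0.0027 with edgeR's own filter.

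The count of all genes called, 44 with TGF-β and 110 with IL-4+IL-13 against vehicle and 349 between these treatments, ranged over the alternatives from 0 to 233, 13 to 282 and 49 to 871, and against IL-6 from 0 to 242 (9) for TGF-β and 15 to 246 (83) for IL-4+IL-13. The lowest counts came without the replicate block. For TGF-β against vehicle, 1 gene was called without batch 5 and 2 without batch 3. Of the 10 genes most and least like CYP1B1, 7 remained without batch 1. CYP1A1, at 57 to 237 counts per library, and AHR had the widest standard errors of the members, 0.21 on the log2 scale for each against vehicle.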
